A study of Mus musculus with 6 samples.

Results

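The genes described here were 10 immediate early genes: the AP-1 subunit genes Fos, Fosb, Fosl2, Jun, Junb and Jund, and Egr1, Ier2, Ier3 and Dusp1. They were chosen by name as immediate early genes, several of which have few or no introns, and all 10 were rows of a table of 55487 genes. Earlier results of these data were known when these genes and the further gene lists below were chosen. Counts over them are therefore descriptions and not support. The 10 genes were measured by RNA sequencing of αTC1 cells, a line derived from a mouse glucagonoma that is used as a model of glucagon-producing α cells. Libraries named inhibitor came from cells treated with the compound G786-1089, which the labels describe as an SMNDC1 inhibitor, and libraries named DMSO from cells given the solvent, with 3 libraries in each group. The 3 libraries of a group are called A, B and C after the letters in the column names. The study's reporting summary states that cells of each replicate were split from the same batch and processed together, but nothing ties a letter to a numbered replicate, so whether letters pair libraries is not known. The product of Smndc1 takes part in pre-mRNA splicing. All libraries were of 1 cell line with no further genetic change named and neither the dose nor the length of treatment was in the labels. The labels do not say whether replicates were grown separately, so p-values measure the spread between these libraries, which may be technical.

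Immediate early genes are transcribed within minutes of a stimulus, from factors already present in the cell, and their mRNAs are usually short-lived. Fos and Jun family proteins pair through leucine zippers to form AP-1, a transcription factor in which Jun proteins can also pair with each other while Fos proteins need a Jun partner. Mitogen-activated protein kinases drive much of this response, and Dusp1, a nuclear phosphatase that inactivates these kinases, is part of the feedback that ends it. In α cells, as in other endocrine cells, calcium and cyclic AMP act on the same genes through CREB.

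A hallmark of these mRNAs is the AU-rich element of the 3′ untranslated region, which marks a transcript for rapid decay. The nonamer TTATTTATT was found on the transcript strand in the 3′ untranslated region of 3 of the 10 genes, and in 6.91% of 20637 coding genes with such a region. The pentamer ATTTA was present in 9 of the 10, all except Ier2, and in 61.6% of coding genes. The sites are shown with the nonamer in capitals (GRCm38), because Fos and Dusp1 are among the genes on which the results turn. The Fos site lay at chr12:85477105-85477129 on the plus strand, the first of 2 nonamers of Dusp1 at chr17:26506161-26506185 on the minus strand, and the Fosl2 site at chr5:32156873-32156897 on the plus strand.
Fos: ttttcaatTTATTTATTaagatgga
Dusp1: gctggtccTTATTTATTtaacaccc
Fosl2: ttattttaTTATTTATTttaaatgt

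The promoters, 250 bases before to 50 bases after the RefSeq start of transcription (GRCm38.p6), were searched on both strands for the CArG box bound by serum response factor, the cyclic AMP response element (CRE) TGACGTCA, the AP-1 site TGACTCA or TGAGTCA, the TATA sequence TATAAA and the EGR site GCGTGGGCG or GCGGGGGCG. The CRE half-site TGACG, which is contained in the full CRE, was added after the sequences had been seen. RefSeq promoters were matched for 8 of the 10 genes, and those of Ier2 and Egr1 are not shown. The promoters printed are those of the 2 genes that passed the filter described below, Jun and Junb, and of Fos and Dusp1, which passed other tests. Capitals mark every match. They lay at chr12:85473640-85473939 on the plus strand for Fos, chr8:84978699-84978998 on the minus strand for Junb, chr17:26508423-26508722 on the minus strand for Dusp1 and chr4:95052173-95052472 on the minus strand for Jun.
Fos: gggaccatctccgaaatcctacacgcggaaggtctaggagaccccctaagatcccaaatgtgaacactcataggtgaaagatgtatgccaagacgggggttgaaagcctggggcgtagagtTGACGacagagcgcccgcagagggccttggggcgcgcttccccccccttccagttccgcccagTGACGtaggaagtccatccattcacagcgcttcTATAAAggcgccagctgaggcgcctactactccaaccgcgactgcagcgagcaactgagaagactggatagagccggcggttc
Junb: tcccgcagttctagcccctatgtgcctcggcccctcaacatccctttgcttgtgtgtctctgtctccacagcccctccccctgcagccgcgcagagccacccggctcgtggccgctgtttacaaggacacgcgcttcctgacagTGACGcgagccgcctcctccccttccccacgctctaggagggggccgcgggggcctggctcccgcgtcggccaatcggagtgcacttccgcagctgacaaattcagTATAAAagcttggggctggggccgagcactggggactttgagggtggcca
Dusp1: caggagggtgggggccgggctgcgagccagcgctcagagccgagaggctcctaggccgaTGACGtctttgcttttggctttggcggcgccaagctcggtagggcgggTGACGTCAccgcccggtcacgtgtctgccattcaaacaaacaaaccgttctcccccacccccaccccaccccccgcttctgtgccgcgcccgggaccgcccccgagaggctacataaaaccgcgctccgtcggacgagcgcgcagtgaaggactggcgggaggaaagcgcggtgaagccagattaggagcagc
Jun: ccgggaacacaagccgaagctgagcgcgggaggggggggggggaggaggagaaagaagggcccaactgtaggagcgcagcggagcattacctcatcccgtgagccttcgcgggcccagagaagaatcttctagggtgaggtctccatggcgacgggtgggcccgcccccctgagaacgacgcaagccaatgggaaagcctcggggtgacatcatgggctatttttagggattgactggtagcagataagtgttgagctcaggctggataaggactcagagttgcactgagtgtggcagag

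Fos held the half-site at -129 and -66 from the start and TATAAA at -33. Junb held the half-site at -106 and TATAAA at position 1, and its annotated start in the Ensembl-based files, base 84978718, lies downstream of the RefSeq start. Dusp1 held a full CRE at -143, which contains the half-site on both strands, and a further half-site at -191. No exact match to a searched sequence was found in the window of Jun. That window holds tgacatca, the CRE with A in place of G, which was not among the sequences searched for. Of the promoters not printed, Fosb held a half-site at -60 and an EGR site at -50, Fosl2 an EGR site at -79, and Jund and Ier3 none of the searched sequences. The window of Jund describes a RefSeq start 1210 bases upstream of the nearest annotated start of a coding transcript, and that of Fosl2 a start 671 bases downstream of it, so neither window covers the annotated start; for the other 6 the starts were at most 30 bases apart. Neither the CArG box nor the AP-1 site was found in any of the 8 windows. Sites further upstream, and sites that depart from the searched patterns, were not searched for, so these genes may still hold such sites. Of 32817 promoters, 20.8% held the half-site, 1.79% the full CRE, 13.6% TATAAA, 3.47% the EGR site, 5.20% the AP-1 site and 1.63% the CArG box. These matches describe the windows and are not evidence of binding.

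Libraries held between 59070705 and 94747943 counts, and each inhibitor library was deeper than each DMSO library. The sum of 10 α-cell marker genes, of which Gcg was the most abundant, was 5067 to 5849 CPM (counts scaled to library size with TMM factors) with the inhibitor and 24300 to 27160 CPM with DMSO. The hormone genes Ins1, Sst, Ppy and Pyy were at 0 in every library, and 8 β-cell markers summed to 6.54 to 11.4 CPM with the inhibitor and 10.3 to 15.4 CPM with DMSO. Macrophage markers summed to 8.31 to 23.6 CPM with the inhibitor and 6.87 to 8.55 CPM with DMSO, and fibroblast markers to 0 to 0.254 CPM and 1.63 to 4.91 CPM. The part of these differences in the results below was not tested, and in bulk RNA fewer cells of a kind cannot be told apart from less RNA per cell. Thinning all libraries to the total of the shallowest one changed no call among the 10 genes.

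Jun and Junb rose with the inhibitor, by 2.90-fold and 4.21-fold. Dusp1 was 1.50-fold higher, and Fos and Egr1 had 7.18 and 8.85 times the mean DMSO level but varied widely between DMSO libraries. Fosl2 and Ier2 had higher means with the inhibitor and Jund a lower one, none past the test, and Fosb and Ier3 were at or near 0. The comparison used edgeR's quasi-likelihood test over 15082 genes, with Benjamini-Hochberg adjustment. A gene passed the filter with an adjusted p of at most 0.1 and a log2 fold change of at least 1 in either direction. The study applied these limits to DESeq2 results, to filter the genes of differential splicing events. An exact permutation test of 3 libraries against 3 cannot go below p = 0.1.

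Of the 10 genes, 8 had enough counts to be tested. The filter was passed by 2 of them, both higher, and by 1509 of all genes tested, or 10%, with 6.01% higher and 3.99% lower. At an unadjusted p under 0.05 in the edgeR fit 4 of the 8 were higher and 0 lower, against 14.4% and 13.4% of all genes. DESeq2 gave 3 past the filter, all higher, against 9.15% of the genes it tested. At an adjusted p under 0.05 with no fold limit, 3 of the 8 were higher, against 6.78% of all genes. The lowest inhibitor library was above the highest DMSO library for 6 of the 8, against 18.2% of all genes. The log2 fold change was above 0 for 7 of the 8, against 51.8% of all genes, with a median of 1.53 against 0.04 for all genes tested. Egr1 reached the minimum count in 1 of 3 DMSO libraries and so entered the test through its inhibitor libraries, and Fos reached it in 2 of 3 DMSO libraries, so counts over the tested genes are descriptions and not support.

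**Figure D1:**
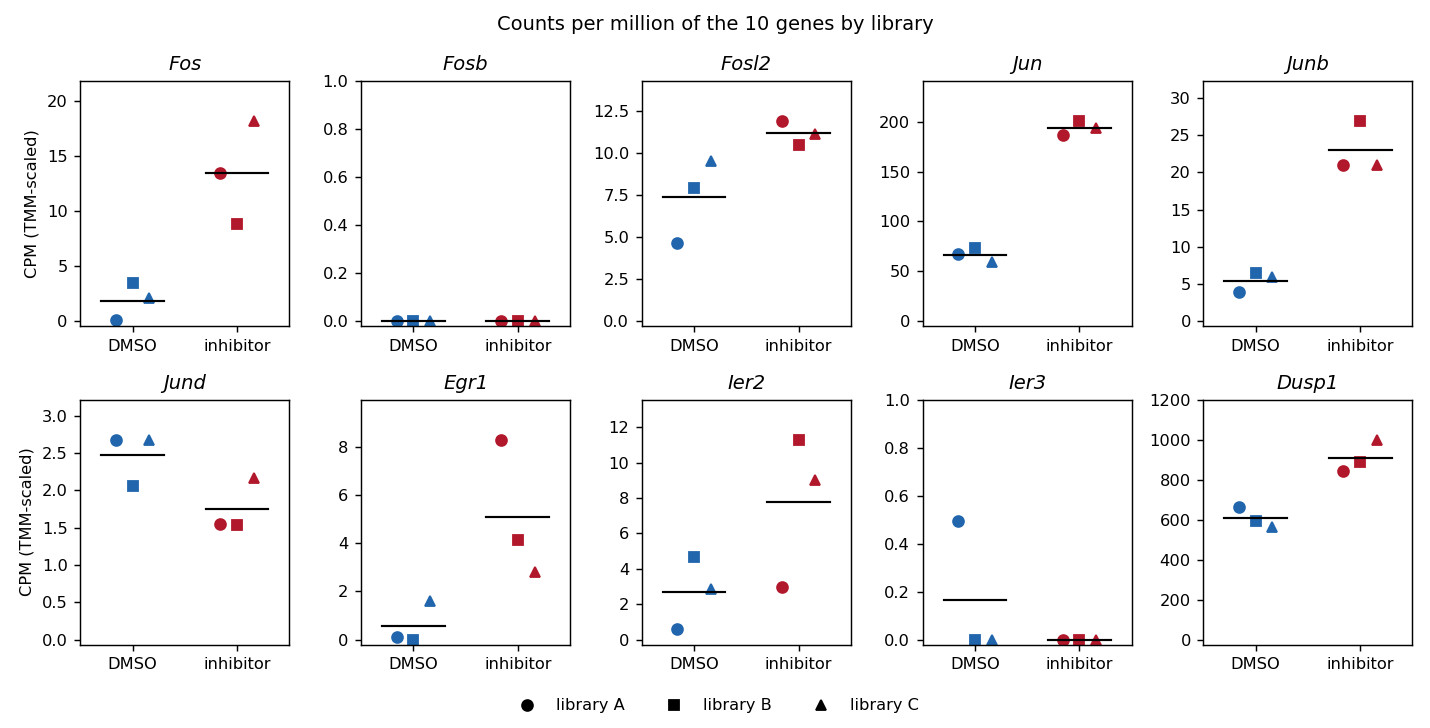
CPM (TMM-scaled, linear axis, a separate scale for each gene) of the 10 genes in each DMSO (blue) and inhibitor (red) library, with symbols for libraries A, B and C and a black line at the group mean. Jun, Junb and Dusp1 formed tight, separate groups, whereas the DMSO values of Fos ran from 0.0986 to 3.45 CPM and those of Egr1 from 0 to 1.62 CPM.

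Jun (ENSMUSG00000052684, chr4:95049034-95052222, minus strand, 1 exon), the leading Jun family subunit of AP-1, had 187, 201 and 193 CPM in inhibitor libraries A, B and C and 67.7, 73.2 and 59.4 CPM in DMSO libraries A, B and C. The groups were far apart, and the libraries within each differed little. The means were 194 ± 7.04 and 66.8 ± 6.93 CPM (SD, n = 3 libraries each), a log2 fold change of 1.54 (SE 0.11, edgeR adjusted p = 0.000519). By p, Jun ranked 104 among the 15082 genes. An antisense gene, Junos, with 232 bases identical to Jun, had 0 counts in all libraries but DMSO B, which had 2.

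Junb (ENSMUSG00000052837, chr8:84976910-84978718, minus strand, 1 exon), a Jun family subunit that is often a weaker activator than Jun, had 21.0, 26.9 and 21.0 CPM with the inhibitor and 3.90, 6.53 and 5.92 CPM with DMSO. The lowest inhibitor library lay well above the highest DMSO library, and DMSO A was the lowest of all. The means were 22.9 ± 3.41 and 5.45 ± 1.38 CPM (SD, n = 3), a log2 fold change of 2.07 (SE 0.29, edgeR adjusted p = 0.00619). Leaving out each library in turn gave 1.45 to 1.60 for Jun and 1.88 to 2.22 for Junb, all past the filter.

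Jund (ENSMUSG00000071076, chr8:70698949-70700616, plus strand, 1 exon), the Jun family member that is usually expressed without a stimulus and is not itself a typical immediate early gene, had 1.55, 1.54 and 2.17 CPM with the inhibitor and 2.68, 2.06 and 2.67 CPM with DMSO. Inhibitor C overlapped the DMSO libraries, and the log2 fold change of -0.49 (SE 0.54, edgeR adjusted p = 0.630) was within the spread. Its level is uncertain and may be too low, because 877 of its 1668 exon bases (52.6%) overlap the antisense gene Gm11175 and counting ignored strand. The study counted in Union mode, in which a read over both genes is assigned to neither. Gm11175 had 0 counts in every library, which therefore does not show that the overlap was without effect. At 67.2% GC, its transcript stood at the 99.7th percentile of coding genes.

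Fos (ENSMUSG00000021250, chr12:85473890-85477273, plus strand, 4 exons), the founding Fos family subunit, had 13.5, 8.81 and 18.2 CPM with the inhibitor and 0.0986, 3.45 and 2.10 CPM with DMSO. The groups did not overlap, but DMSO A stood far below the others, with 6 counts against 224 and 114, and the DMSO libraries spanned a 35.0-fold range against 2.07-fold with the inhibitor. The means were 13.5 ± 4.70 and 1.88 ± 1.69 CPM (SD, n = 3), a log2 fold change of 2.84 (SE 1.06, edgeR adjusted p = 0.138), which missed the filter. Fos passed it without DMSO A (2.28, edgeR adjusted p = 0.0574), and not on leaving out any of the other libraries, where the log2 fold change reached 3.62 and the adjusted p 0.276. It also passed with DESeq2 (2.84, adjusted p = 0.0203) over 16373 genes, and with limma on log2(FPKM + 1) (1.96, adjusted p = 0.00404), where 6.53% of 10633 genes did. FPKM scale counts by exon length and library, and so give a level per length.

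Fosl2 (ENSMUSG00000029135, chr5:32135801-32157842, plus strand, 4 exons), which encodes Fra-2, a Fos family subunit without the strong activation domain of Fos, had 11.9, 10.5 and 11.2 CPM with the inhibitor and 4.67, 7.93 and 9.57 CPM with DMSO. The groups did not overlap, but the gap between inhibitor B and DMSO C was smaller than the spread of the DMSO libraries, of which A was again the lowest. The log2 fold change was 0.60 (SE 0.34, edgeR adjusted p = 0.318). Fosb (ENSMUSG00000003545, chr7:19302696-19310051, minus strand, 4 exons) had 0 of 437575127 counts over all libraries, and 3 counts, the limit that a count of 0 allows, correspond to 0.0317 to 0.0508 CPM of library total.

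Egr1 (ENSMUSG00000038418, chr18:34859823-34864984, plus strand, 2 exons), a zinc finger transcription factor induced through serum response factor, had 8.29, 4.12 and 2.79 CPM with the inhibitor and 0.0986, 0 and 1.62 CPM with DMSO. All inhibitor libraries were above all DMSO libraries, but DMSO A and B rested on 6 and 0 counts while DMSO C had 88. The means were 5.07 ± 2.87 and 0.573 ± 0.908 CPM (SD, n = 3), a log2 fold change of 3.15 (SE 1.70, edgeR adjusted p = 0.295), which missed the filter. Without DMSO C it was 6.65 (edgeR adjusted p = 0.0757), a value fitted against 2 libraries at or near 0 that passed the filter. On leaving out each of the other libraries Egr1 did not pass, and the lowest log2 fold change was 2.56.

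Ier2 (ENSMUSG00000053560, chr8:84661331-84662854, minus strand, 1 exon), a growth factor-inducible gene whose product acts in the nucleus, had 2.97, 11.3 and 9.04 CPM with the inhibitor and 0.592, 4.68 and 2.87 CPM with DMSO. Inhibitor A fell among the DMSO libraries, and library A was the lowest of each group. The log2 fold change was 1.52 (SE 0.84, edgeR adjusted p = 0.306). Ier3 (ENSMUSG00000003541, chr17:35821684-35822923, plus strand, 2 exons), a stress-inducible regulator of survival, had 30 counts (0.493 CPM) in DMSO A and 0 in each of the other libraries, and like Fosb it was not tested.

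Dusp1 (ENSMUSG00000024190, chr17:26505590-26562128, minus strand, 4 exons in its coding transcript) had 845, 886 and 1000 CPM with the inhibitor and 661, 593 and 565 CPM with DMSO. The groups did not overlap, and each spanned less than the distance between them. The means were 910 ± 80.6 and 606 ± 49.5 CPM (SD, n = 3), a log2 fold change of 0.59 (SE 0.09, edgeR adjusted p = 0.0088). This was past the adjusted p but short of the fold limit, and remained so with each library left out, at 0.51 to 0.65. In the GENCODE basic annotation, the exons of no gene but Jund among the 10 overlapped those of another gene. The 232 bases that Junos shares with Jun came from a search of all transcripts.

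Single-exon genes were 4 of the 10 (Jun, Junb, Jund and Ier2), against 7.03% of coding genes. The 4 had log2 fold changes of 1.54, 2.07, -0.49 and 1.52. The tested genes with introns had 2.84 for Fos, 3.15 for Egr1, 0.60 for Fosl2 and 0.59 for Dusp1. Of these 8 values, those of Jun and Junb passed the filter, and the part of gene structure in them was not tested.

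**Figure D2:**
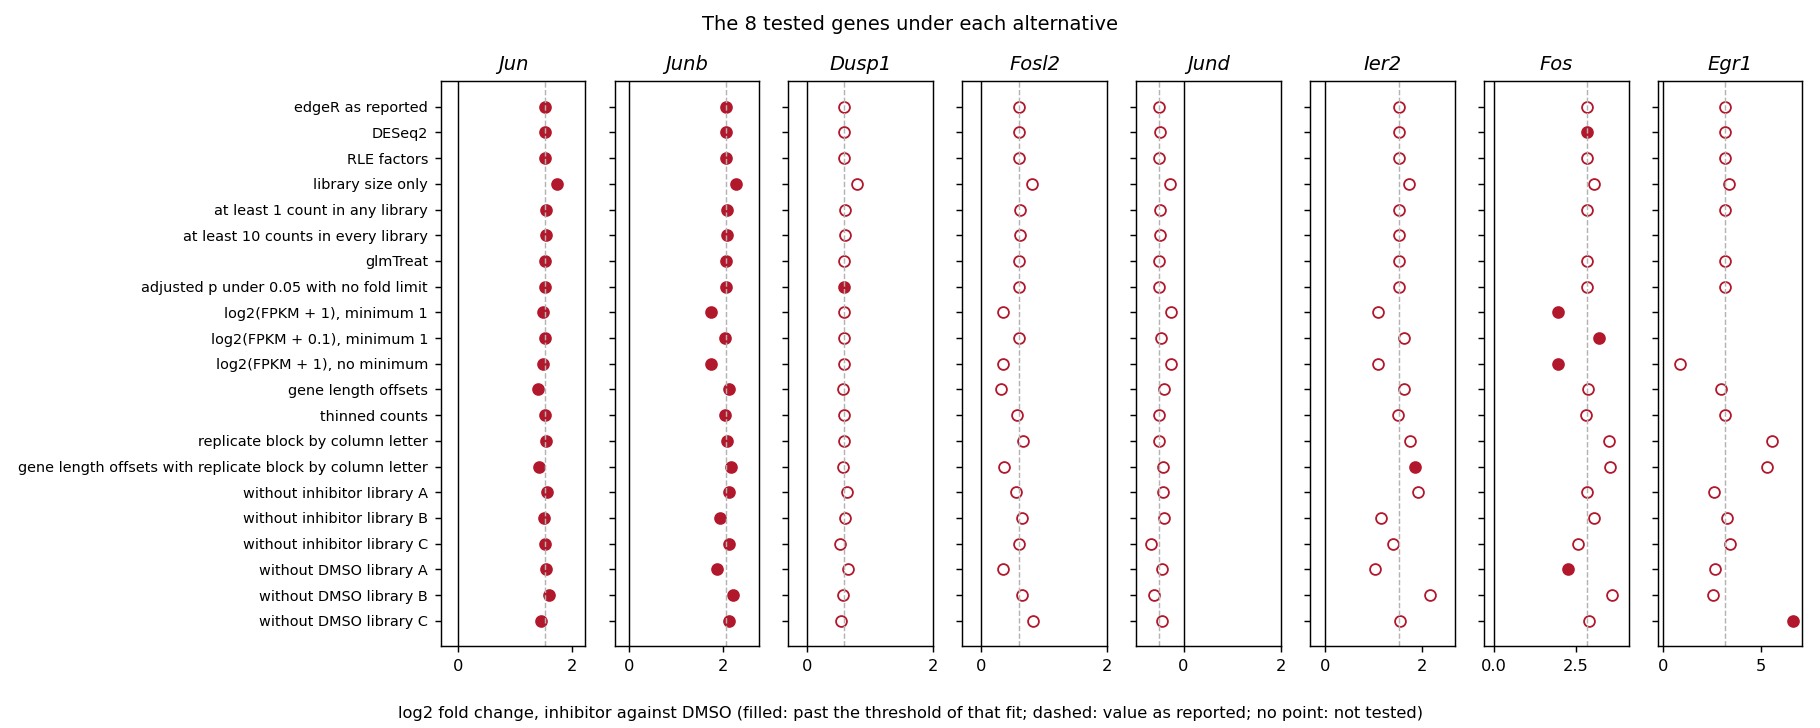
Log2 fold change (x axis, inhibitor against DMSO) of the 8 tested genes in the edgeR fit as reported (top, dashed line) and under each alternative (rows), filled where the gene passed the threshold of that fit; genes not tested in a fit have no point. Jun and Junb were filled in every row, Fos in the DESeq2 and FPKM fits and without DMSO library A, and Egr1 without DMSO library C. Dusp1 was filled where the fold limit was dropped, and Ier2 with gene length offsets and the replicate block together.

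Levels between genes were compared in FPKM, as medians of 3 libraries. With DMSO, Dusp1 led at 229 FPKM, followed by Jun at 19.5 and Junb at 3.02. Below it came Ier2 at 1.73, Jund at 1.47, Fosl2 at 1.11 and Fos at 0.916, which overlapped each other from library to library, with Ier2 also overlapping Junb. Egr1 had the lowest median of the tested genes at 0.0202 FPKM, and its range overlapped that of Fos. With the inhibitor, the order began with Dusp1 at 344, Jun at 55.3 and Junb at 10.6 FPKM, each apart from the next in every library. Fos at 5.85 and Ier2 at 5.42 FPKM overlapped. Fosl2 at 1.56 overlapped Egr1 at 0.848 FPKM, which overlapped Jund at 0.851. Fos therefore stood below Fosl2 and Jund by its median with DMSO and above both in every library with the inhibitor. The place of Jund in these orders is uncertain, because its FPKM may be too low through the overlap with Gm11175.

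The make-up of the measured AP-1 subunit genes was described by summing FPKM. Jun, Junb and Jund together came to 64.9, 72.6 and 67.1 FPKM with the inhibitor and 22.9, 25.5 and 21.7 FPKM with DMSO, and Jun made up 79.3% to 85.0% of this in every library. Fos and Fosl2 together came to 7.52, 5.34 and 9.45 FPKM with the inhibitor and 0.699, 2.61 and 2.26 FPKM with DMSO. Both sums were higher in each inhibitor library than in each DMSO library. Fos made up 77.8%, 72.2% and 83.5% of the Fos-type sum with the inhibitor and 6.15%, 57.4% and 40.5% with DMSO, where Fosl2 was the larger part in DMSO A and C. As a share of all measured subunit FPKM, however, Fos-type genes came to 10.4%, 6.85% and 12.3% with the inhibitor and 2.96%, 9.29% and 9.47% with DMSO, and these shares overlapped. The Jun-type sums include Jund, whose FPKM may be too low, as given above. Jun-type mRNA was thus in excess in every library, and these are mRNA levels that say nothing of protein.

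**Figure D3:**
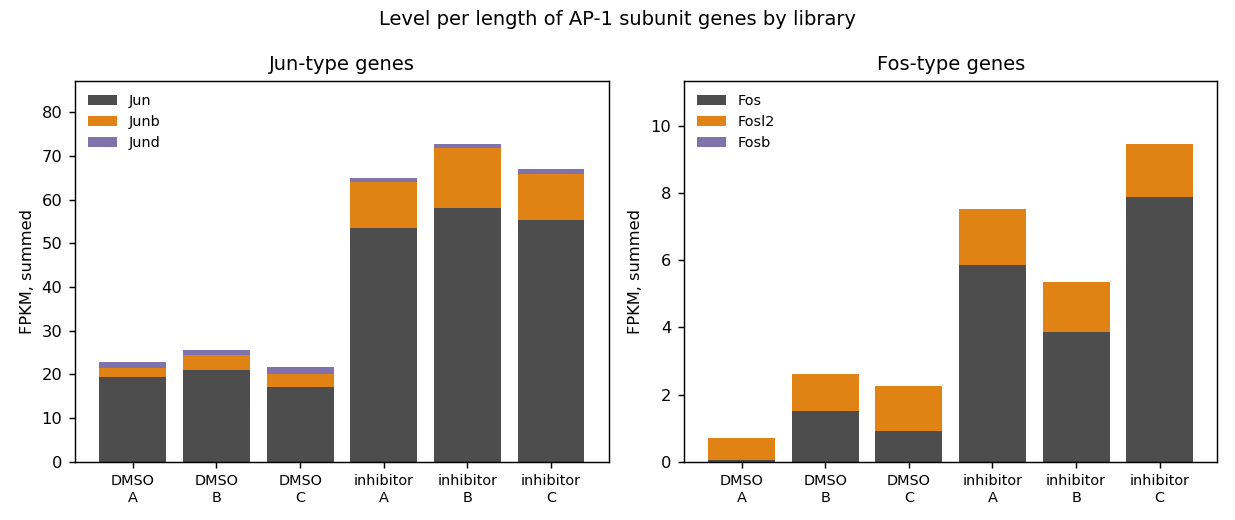
FPKM of Jun-type (left) and Fos-type (right) subunit genes stacked by library, on separate linear axes that start at 0. The Jun-type sums ran from 21.7 to 25.5 FPKM with DMSO and from 64.9 to 72.6 with the inhibitor, mostly Jun; the Fos-type sums ran from 0.699 to 2.61 and from 5.34 to 9.45, with Fos (grey) the larger part in each inhibitor library and Fosb at 0.

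Further bZIP genes whose products can join AP-1 were 11, of which 6 were tested and 2 rose, Atf2 and Atf3, while none fell (6.01% and 3.99% of all genes). Atf2, a bZIP factor activated by stress kinases that pairs with Jun, had 67.5, 52.6 and 44.7 CPM with the inhibitor and 9.72, 4.43 and 7.67 CPM with DMSO (log2 fold change 2.92, SE 0.34, edgeR adjusted p = 0.00327). Atf3, a stress-induced bZIP factor, had 31.0, 60.6 and 43.3 CPM and 8.71, 4.86 and 20.6 CPM (1.98, SE 0.56, edgeR adjusted p = 0.0635). The Atf3 call was the less firm, since it was lost on leaving out inhibitor B (adjusted p = 0.164), inhibitor C (0.140), DMSO A (0.185) or DMSO B (0.117) in the same edgeR fit. With libraries blocked by column letter its adjusted p was 0.101.

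Of 40 other immediate early and related early genes, 31 were tested, 6 rose and 3 fell, against 6.01% higher and 3.99% lower over all genes. Of the 31, 24 were above 0 and 7 below, with a median log2 fold change of 0.73, against 51.8% above 0 over all genes. Of those that rose, the 4 with the smallest p were Plk3, Gadd45g, Plk2 and Ppp1r15a. Plk3, a polo-like kinase of the stress response, had 311, 466 and 415 CPM with the inhibitor and 45.1, 46.3 and 47.2 CPM with DMSO, and Gadd45g, a growth arrest and DNA damage-inducible gene that activates the p38 and JNK pathways, had 126, 135 and 142 CPM and 28.3, 31.9 and 27.8 CPM. The log2 fold changes were 3.10 for Plk3 (edgeR adjusted p = 0.000214) and 2.20 for Gadd45g (0.00023), with 2.17 for Ppp1r15a (0.00362), which helps to reverse the block on translation under stress, and 1.10 for the kinase gene Plk2 (0.000371). Those that fell were Nr4a2, an orphan nuclear receptor (-1.39, edgeR adjusted p = 0.0115), Sgk1, a serum- and glucocorticoid-regulated kinase (-1.06, 0.0112), and Crem, a cyclic AMP-responsive bZIP gene (-2.18, 0.0117). Crem had 5.38, 13.8 and 9.59 CPM with the inhibitor and 51.8, 39.3 and 39.3 CPM with DMSO, and its value is uncertain because Gm6225 matches 305 bases of it at 99.7% identity. Sgk1 was past the fold limit by little, and without inhibitor C it was at -0.89 and not past it.

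Among 13 genes of MAP kinase phosphatases and of the Sprouty and Spred inhibitors of the pathway, 9 were tested, 1 rose and none fell. At an unadjusted p under 0.05 in the edgeR fit, 1 was higher and 1 lower. Over all genes 6.01% rose and 3.99% fell, with 14.4% higher and 13.4% lower at that unadjusted p. The gene that rose was Dusp4, a nuclear phosphatase of the same family as Dusp1, with 13.3, 8.78 and 19.0 CPM with the inhibitor and 1.15, 0.831 and 0.957 CPM with DMSO (log2 fold change 3.81, SE 0.43, edgeR adjusted p = 0.00276). Dusp10, which acts on JNK and p38, had 3.15, 2.39 and 7.32 CPM and 13.0, 10.8 and 10.5 CPM (-1.41, SE 0.48, edgeR adjusted p = 0.111). It passed without inhibitor C (-2.04, edgeR adjusted p = 0.0292) and with DESeq2 (-1.41, adjusted p = 0.0201). It also passed in the FPKM fits (limma adjusted p from 0.0254 to 0.0899) and with at least 10 counts required in every library (edgeR adjusted p = 0.0808). Under the remaining alternatives Dusp10 missed the filter. Of 33 MAP kinases and activators, 30 were tested, and 3 rose, or 10% against 6.01% of all genes: Mapk7, which encodes ERK5 (1.21, edgeR adjusted p = 0.00398), Map2k1, which encodes MEK1 (1.29, 0.0156), and Mapk8, which encodes JNK1 (1.65, 0.0234). No gene of this list fell, and its median log2 fold change was 0.04, as over all genes tested. At an unadjusted p under 0.05 in the edgeR fit, 3 of this list were higher and 3 lower, against 14.4% and 13.4% of all genes. With DESeq2 1 passed the filter lower, as did 1020 of the 16373 genes it tested.

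No gene passed the filter among 13 tested transcription factors and co-factors that act on immediate early genes (of 16) or 14 tested proteins that bind AU-rich elements or degrade mRNA (of 15). Over all genes tested, 10% passed. The median log2 fold changes of the 2 lists were 0.68 and 0.28. At an unadjusted p under 0.05 in the edgeR fit, 2 genes of each were higher and 0 lower, against 14.4% and 13.4% of all genes. With DESeq2 the filter was passed by 0 of the former and 1 of the latter, Xrn1 (adjusted p = 0.0185). The smallest p in the former were those of Crebbp, a co-activator of CREB, at 0.79 (edgeR adjusted p = 0.0655, past the p limit but not the fold limit), and Mrtfb, a co-activator of serum response factor, at 0.93 (0.157), and in the latter those of Auh at 0.49 (0.0846) and the exonuclease gene Xrn1 at 1.79 (0.139). Xrn1 is uncertain, since Gm16794 shares 184 identical bases with it and had 186 counts in DMSO B. At an adjusted p under 0.05 with no fold limit, neither list had a gene in either direction, against 1022 higher and 1140 lower of all 15082 genes.

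Genes described as AP-1 targets were 24, of which 12 were at 0 in every library and 8 were tested. Of these 8, 3 rose and none fell, against 6.01% higher and 3.99% lower over all genes. Of the 3, Mt2 reached the minimum count in 0 of the 3 DMSO libraries. The 3 were Mt1, a metallothionein (502, 469 and 458 CPM with the inhibitor and 75.7, 76.5 and 83.7 CPM with DMSO, log2 fold change 2.60, edgeR adjusted p = 0.000106), Hmox1, which encodes heme oxygenase 1 (274, 263 and 209 CPM and 52.5, 50.8 and 53.5 CPM, 2.25, 0.000271), and Mt2. All 3 are also known to respond to metals or oxidative stress through other factors. Mt2 had 356, 443 and 447 counts with the inhibitor and 3, 0 and 4 with DMSO, so it entered the test through the inhibitor libraries alone, and its fitted log2 fold change of 6.83 (edgeR adjusted p = 0.0126) depends on the prior count. In addition, 73.5% of its exon bases overlap the antisense gene Gm45774.

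**Figure D4:**
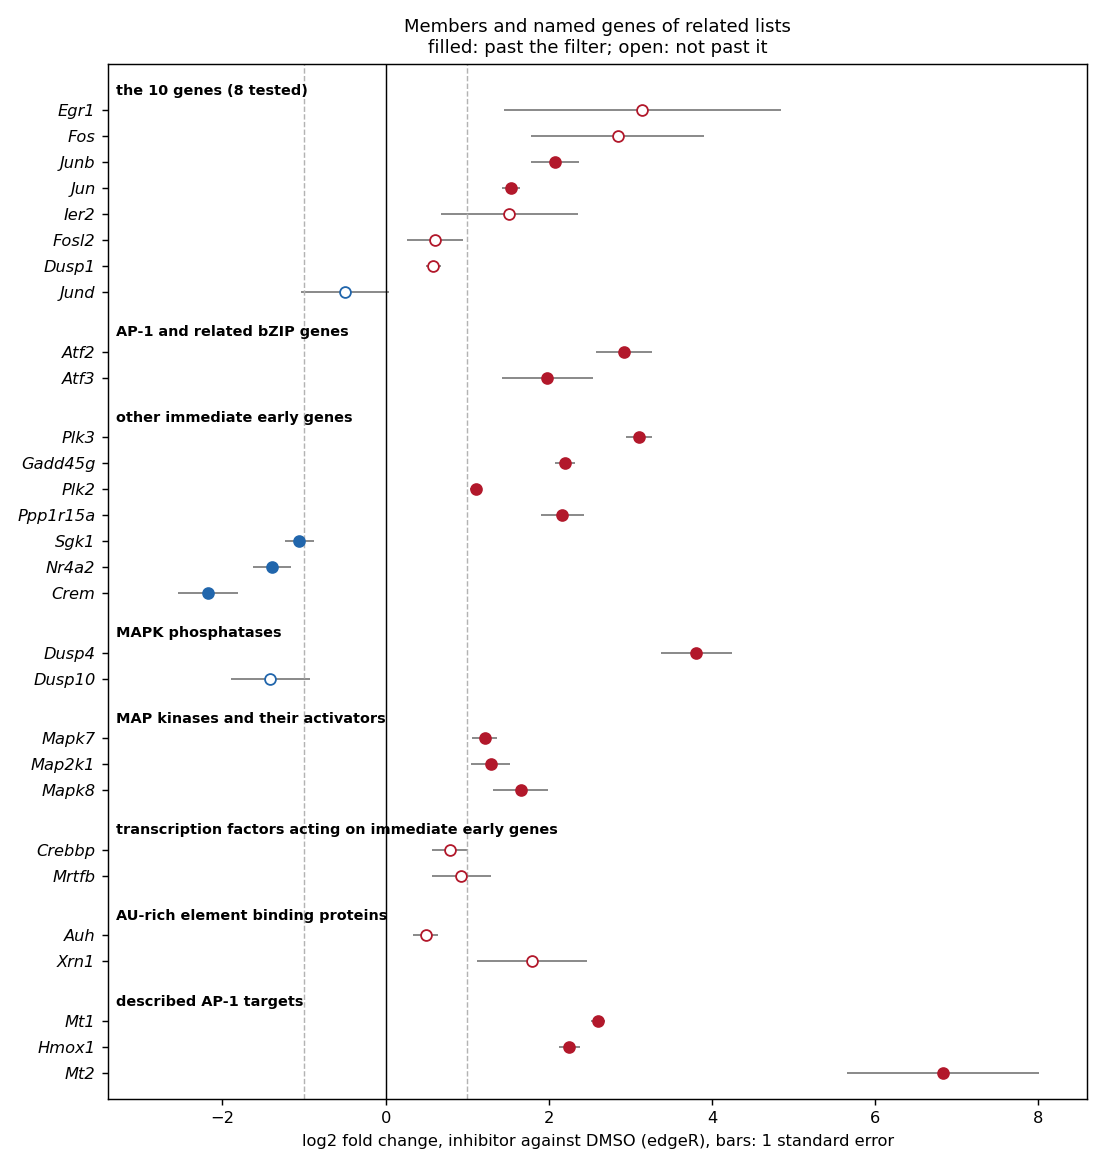
Log2 fold change (x axis, bars 1 standard error) of the 8 tested members and the genes named from the related lists, higher in red and lower in blue, filled where past the filter; dashed lines mark the fold limit. Jun lay at 1.54 and Junb at 2.07 with short bars, while Fos at 2.84 and Egr1 at 3.15 had larger values with long bars (SE 1.06 and 1.70) and were not past the filter.

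The spread within groups was shared by some members. DMSO A was the lowest DMSO library for Fos, Fosl2, Junb and Ier2, but the highest for Dusp1 and Jund. Over 6 libraries, the genes whose log2 CPM was most like that of Fos, among 7896 genes whose log2 CPM averaged 3 or more, were Mfsd11 (Pearson r = 0.990), Samhd1 (0.989), Aunip (0.987), Thoc5 (0.987) and Cep128 (0.986). None of these was on the lists of immediate early genes, and of the 5 only Cep128 passed the filter (log2 fold change 1.12, edgeR adjusted p = 0.0746). Each was lowest in DMSO A: Mfsd11 had 43.5 CPM there, 57.6 to 65.7 CPM in the other DMSO libraries and 75.3 to 77.4 CPM with the inhibitor. These correlations describe 6 libraries that share 2 treatments, in which the low value of DMSO A weighs heavily.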

How the data were processed

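RNA was sequenced from 3 inhibitor and 3 DMSO libraries of αTC1 cells, prepared by Smart-seq2 and Nextera XT, which keep no strand. The authors deposited raw counts, aligned with STAR 2.7.9a (version per the submitters' processing notes, which also name Picard 2.19.2, R 4.1.3 and DESeq2 1.34.0) to GRCm38 and counted on Ensembl basic transcripts without regard to strand. The authors also deposited FPKM values, whose ratio to the counts follows exon length and library.

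Counts were tested in R 4.3.3 with edgeR 4.0.16: filterByExpr (minimum count 10, total 15), TMM, robust quasi-likelihood fit and Benjamini-Hochberg adjustment over 15082 genes. Standard errors were the absolute log2 fold change over the square root of F. Printed CPM used TMM-scaled library sizes. Alternatives used DESeq2 1.42.0, limma 3.58.1 on log2 FPKM with pseudocounts of 1 and 0.1 (fold changes on that scale are understated for low genes), other scalings and filters, thinned counts, gene length offsets and omission of each library.

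Exons and positions came from GENCODE vM21 basic, which matched 55141 of 55487 genes, 99.4% at the same coordinates. Counts 1 to 10 were even in 78.1% of cases, so read mates may have been counted singly. The limit of 3 counts given for a count of 0 covers counting error only, and would be too low in that case. Members and lists were chosen with earlier results of these data known. Named were the 10 members, up to 4 genes per direction with the smallest p among those passing in each list (the 2 smallest p where fewer than 2 passed) and the 5 genes most like Fos. Exon skipping and other experiments were not analysed here.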

Additional observations from a re-analysis of the deposited data

How the results depend on the processing

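The members past the filter numbered 2 in the reported fit and 2 to 3 under every alternative, with Jun and Junb among them each time. The third member was Fos with DESeq2, with each of the FPKM fits and without DMSO library A. It was Egr1 without DMSO library C and Dusp1 where the fold limit was dropped. With gene length offsets and the replicate block together, an alternative chosen after seeing the data, it was Ier2 (1.86, adjusted p = 0.0965). The 38 results followed were log2 fold changes and counts of passing genes. No log2 fold change changed sign, which glmTreat and the dropped fold limit could not show, as they keep the reported values. Over 753 comparisons, 19 calls of single genes were lost and 17 gained, and 21 counts changed by more than a set ratio. Over all genes, 1509 passed as reported, 2518 with DESeq2 (1498 higher, 1020 lower), 265 with glmTreat, which tests against the fold limit itself, 1005 with length offsets and the block, and 1240 to 1376 with each library left out. The cause was not tested, beyond fewer samples in the last. With glmTreat, 3 of the other immediate early genes, all higher, and 0 of the MAP kinases passed. Scaling by library size alone gave 1357 higher and 381 lower against 907 and 602, and moved the median log2 fold change of all genes to 0.25. Under that scaling Jun was at 1.74, Junb at 2.28 and Jund at -0.29. Fos and Egr1 could not be tested with at least 10 counts required in every library, and Egr1 neither in FPKM fits with a minimum.

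Same-lettered libraries did not deviate together (correlations of 0.0151, 0.0027 and 0.0251), and the letters could not be matched to replicate numbers in the labels. With the replicate block by letter, 1186 genes passed, with Jun (adjusted p = 0.0094) and Junb (0.0259) the 2 members past the filter, and Fos at 3.54 (0.186) and Egr1 at 5.56 (0.248), and Atf3 lost its call (0.101). Counts of 0 to 6 in DMSO libraries limit Fos and Egr1.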
